A study of Mus musculus with 7 samples.

Results

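The genes described here encode the hypoxia-inducible factor (HIF) subunits, the enzymes that hydroxylate them, and proteins that end or limit the HIF response. They were chosen by name as *Hif1a*, *Epas1*, *Hif3a*, *Arnt*, *Egln1*, *Egln2*, *Egln3*, *Hif1an*, *Vhl* and *Cited2*, which are 10 of the 49382 genes in the expression table. The table holds transcript abundance in TPM (a transcript level scaled for transcript length and for the total of each library) from RNA sequencing of 7 libraries of wild-type mouse embryonic fibroblasts (MEFs). MEFs are primary cells grown out of minced embryos, so each culture is a mixture and not a clone, and these came from E13.5 to E14.4 embryos and were used at passages 3 to 7. By the paper's methods, MEFs were sorted to remove macrophages except where unsorted cells are named. A control in complete medium was set beside glucose-free medium for 10 h (glucose depletion), glutamine-free medium for 10 h (glutamine depletion), 0.1% oxygen for 10 h (hypoxia), 1 µM thapsigargin for 10 h (ER stress), 10 µM sodium arsenite for 3 h (oxidative stress) and 100 mM NaCl for 3 h (osmotic stress). Each condition is 1 library, so no difference has a replicate check, no test was made, and a "rise" or "fall" below means only a change of more than 2-fold between that library and the control on the log2(TPM + 1) scale. The table keeps no counts, so the depth behind each value is unknown.

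HIF is a dimer of an oxygen-labile alpha subunit and the stable beta subunit ARNT. In oxygenated cells the prolyl hydroxylases PHD2 (*Egln1*), PHD1 (*Egln2*) and PHD3 (*Egln3*) hydroxylate the alpha subunit, the VHL ubiquitin ligase then recognizes it, and the proteasome destroys it. FIH (*Hif1an*) hydroxylates an asparagine that blocks binding of the coactivators CBP and p300. When oxygen is short, alpha subunits persist, pair with ARNT and bind DNA at a short core motif; because much of this control acts on the protein, transcript levels of the subunits need not follow HIF activity. *EGLN3* and *EGLN1* are known HIF target genes, and their products act back on the alpha subunit. CITED2 limits the response at another step, as it competes with HIF-1α for p300.

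The 7 libraries listed between 19819 and 21154 genes above 0, and mitochondrially encoded transcripts took 5.09% to 9.25% of the TPM. The 6 fibroblast markers summed to between 5769 TPM (ER stress) and 11137 TPM (hypoxia). The summed macrophage markers reached at most 13.7 TPM, endothelial markers 9.07, epithelial markers 11.6 and erythroid markers 1.13. *Ptprc*, *Adgre1*, *Cdh5*, *Epcam*, *Cdh1* and all 5 erythroid markers stayed below 1 TPM in every library. The rest of these markers reached 1 TPM in at least 1 library. The most abundant were *Cd68* (5.26 to 9.77 TPM, macrophage), *Kdr* (1.92 to 4.23, endothelial) and *Krt18* (3.57 to 10.6, epithelial).

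Hypoxia changed 2 of the 10 genes by more than 2-fold, the prolyl hydroxylase genes *Egln1* and *Egln3*, and both rose. Of the 12909 genes that averaged 2 TPM or more over the libraries, 3.57% rose and 2.64% fell in hypoxia. *Egln3* passed that filter only through its hypoxia value, because its mean over the other 6 libraries was 1.73 TPM, and *Epas1* (mean 1.94 TPM) and *Hif3a* (mean 0.02 TPM) did not pass it. In glucose depletion no member changed by more than 2-fold, where 1.83% of the genes rose and 2.41% fell. In glutamine depletion no member changed either, where 3.21% of the genes rose and 3.21% fell. In ER stress *Epas1*, below the filter, fell and no other member changed, where 8.60% of the genes rose and 11.0% fell. In oxidative stress *Cited2* fell and no member rose, where 4.85% of the genes fell and 3.94% rose. In osmotic stress *Vhl* fell and no member rose, where 8.76% of the genes fell and 3.08% rose. All 6 comparisons share the same control library, and in bulk RNA fewer cells of a type and less RNA per cell cannot be told apart. Oxidative and osmotic stress lasted 3 h and the other conditions 10 h, and the control has no stated time. Kind of stress and duration therefore cannot be told apart between the 3 h and the 10 h libraries.

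**Figure D1:**
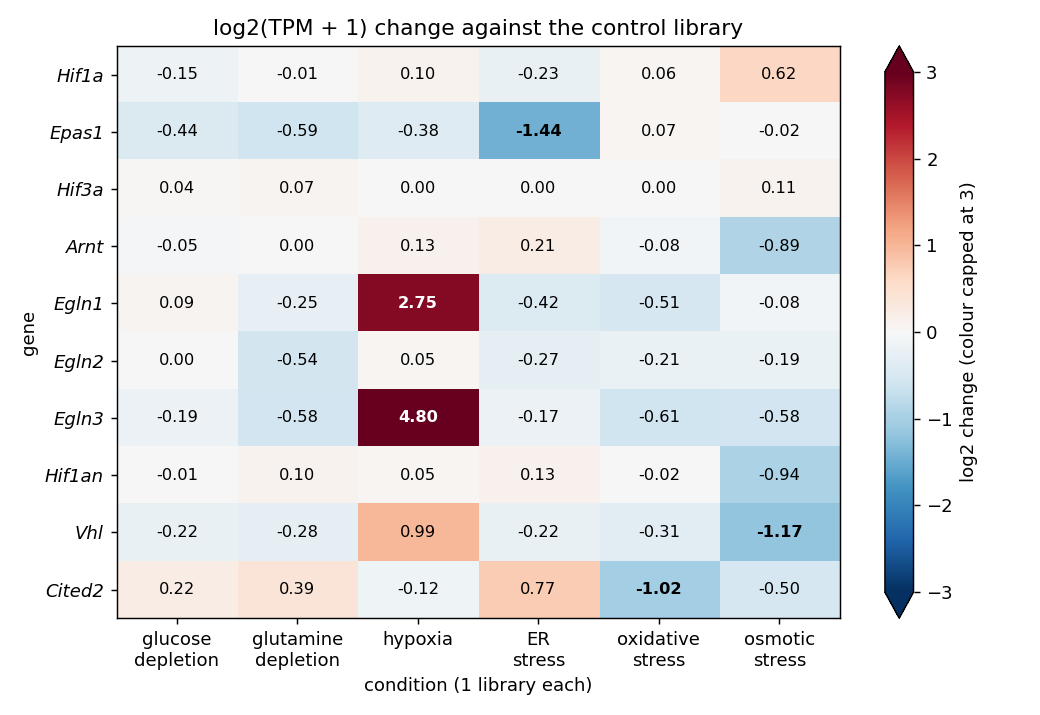
Change of each of the 10 genes (rows) in each of the 6 conditions (columns), as log2(TPM + 1) minus the control library, with colour capped at 3 and values past 2-fold in bold. The bold cells are *Egln1* (2.75) and *Egln3* (4.80) in hypoxia, *Epas1* (-1.44) in ER stress, *Cited2* (-1.02) in oxidative stress and *Vhl* (-1.17) in osmotic stress.

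*Egln3* encodes PHD3 and lies at chr12:54178981-54203860 on the minus strand (GRCm38). It stood at 2.44 TPM in the control, 2.02 in glucose depletion, 1.30 in glutamine depletion, 94.7 in hypoxia, 2.05 in ER stress, 1.26 in oxidative stress and 1.30 in osmotic stress. Hypoxia was high and the other 6 libraries lay together at a low level. The change in hypoxia was 4.80 on the log2(TPM + 1) scale, or 27.8-fold, and it was the 24th highest of the 12909 genes. *Egln3* is counted among those genes only through its hypoxia value. The plain TPM ratio was 38.8, since a pseudocount of 1 TPM is large beside the control value. The next highest library was the control itself.

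*Egln1* encodes PHD2, the main HIF prolyl hydroxylase of most cells, and lies at chr8:124908587-124949324 on the minus strand. Its levels were 24.4 TPM in the control, 26.0 in glucose depletion, 20.4 in glutamine depletion, 170 in hypoxia, 18.0 in ER stress, 16.8 in oxidative stress and 23.1 in osmotic stress. Again hypoxia stood alone, and the other 5 conditions lay from somewhat below the control to just above it. The hypoxia change was 2.75 on the log2(TPM + 1) scale (6.72-fold), which ranked 155th from the top. Measured against the nearest other library, glucose depletion, it was still 2.66. Both *Egln1* and *Egln3* were more than 2-fold above the highest of the other 6 libraries in hypoxia, a mark met by 1.08% of the 12909 genes. That share says little about *Egln3*, which passed the filter only through the same hypoxia value.

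*Egln2* encodes PHD1 and lies at chr7:27158658-27166802 on the minus strand. It measured 43.3 TPM in the control, 43.4 in glucose depletion, 29.4 in glutamine depletion, 44.9 in hypoxia, 35.8 in ER stress, 37.3 in oxidative stress and 37.8 in osmotic stress. It did not follow its relatives in hypoxia, where its change was 0.05, and its lowest library was glutamine depletion at -0.54. Its highest level was 1.53 times its lowest, the narrowest span among the 9 genes detected in every library.

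**Figure D2:**
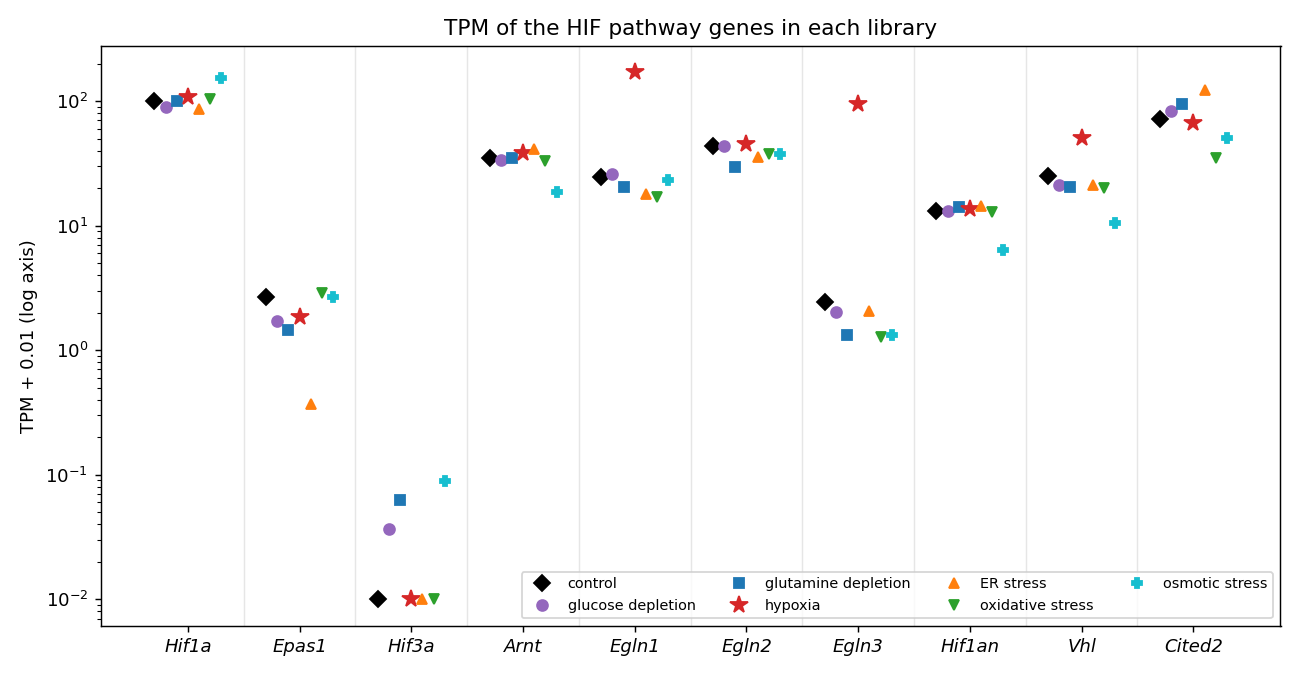
Level of each of the 10 genes in each of the 7 libraries, as TPM + 0.01 on a log axis, 1 point per library. The hypoxia points of *Egln3* (94.7 TPM) and *Egln1* (170 TPM) stand apart from the other libraries, and those of *Egln2*, *Arnt* and *Hif1an* do not. The *Vhl* point in hypoxia (50.4 TPM) also lies above its next library, the control (24.9 TPM).

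These levels are per transcript length, so the 3 hydroxylases can be added. In the control they summed to 70.1 TPM, of which *Egln2* made up 61.7%, *Egln1* 34.8% and *Egln3* 3.48%. In hypoxia the sum was 310 TPM, 4.41 times the control, and the order was *Egln1* (54.9%), *Egln3* (30.6%) and *Egln2* (14.5%). Outside hypoxia the sum stayed between 51.1 and 71.4 TPM and *Egln2* led in every library, with 57.6% to 67.3%. The ratio of *Egln1* to *Egln2* was 0.565 in the control and 3.79 in hypoxia. In transcript terms the main hydroxylase was PHD1 in 6 libraries and PHD2 in hypoxia.

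**Figure D3:**
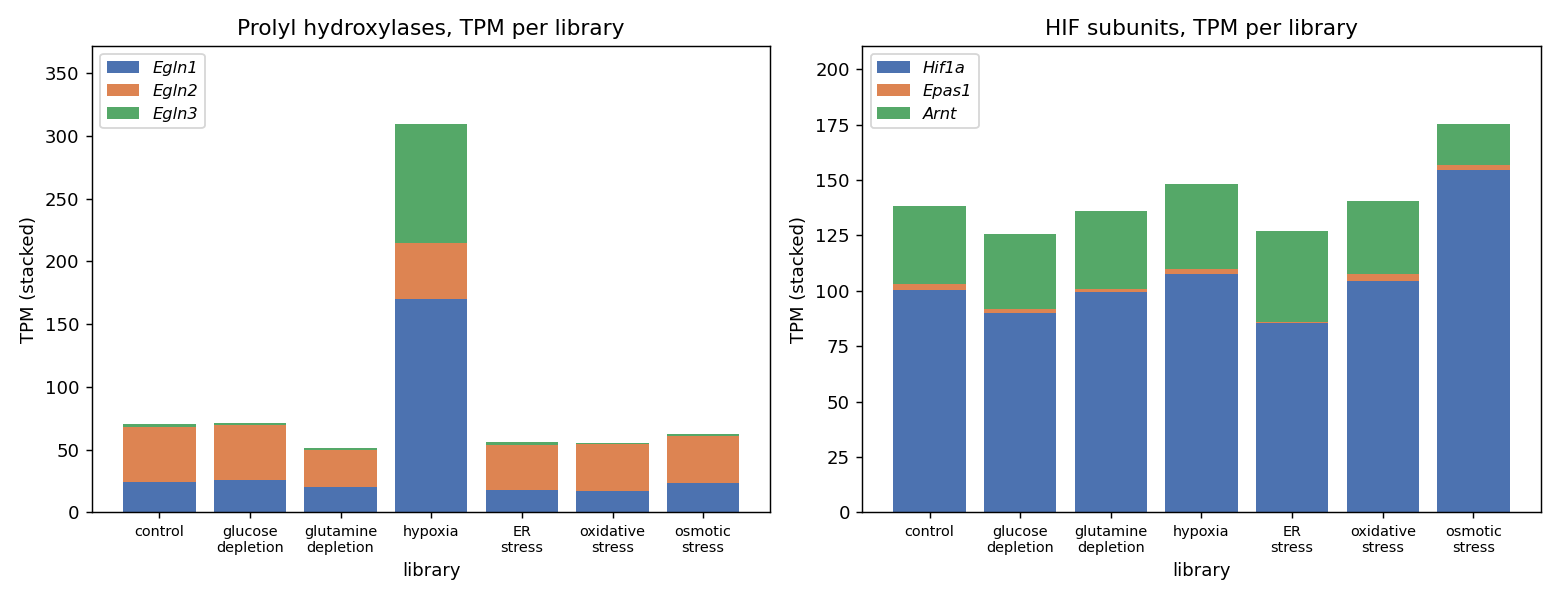
Summed TPM of the prolyl hydroxylase genes (*Egln1*, *Egln2*, *Egln3*) and of the HIF subunit genes (*Hif1a*, *Epas1*, *Arnt*) as stacked bars from 0, 1 bar per library. The hydroxylase bar is 310 TPM in hypoxia against 70.1 in the control, and the *Arnt* segment is shortest in osmotic stress (18.5 TPM).

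The promoters of the 3 hydroxylase genes and of *Vhl* are shown because the hydroxylases split in hypoxia and the HIF core motif can be looked for in each. They are the 250 bases before the start site in RefSeq (GRCm38.p6), 5′ to 3′ on the strand of the gene, at chr8:124949255-124949504 (minus) for *Egln1*, chr12:54203875-54204124 (minus) for *Egln3*, chr7:27166803-27167052 (minus) for *Egln2* and chr6:113623744-113623993 (plus) for *Vhl*. GENCODE places the starts of *Egln1* and *Vhl* slightly upstream of those in RefSeq, inside these windows. Capitals mark each match to ACGTG or GCGTG, read on either strand.
Egln1: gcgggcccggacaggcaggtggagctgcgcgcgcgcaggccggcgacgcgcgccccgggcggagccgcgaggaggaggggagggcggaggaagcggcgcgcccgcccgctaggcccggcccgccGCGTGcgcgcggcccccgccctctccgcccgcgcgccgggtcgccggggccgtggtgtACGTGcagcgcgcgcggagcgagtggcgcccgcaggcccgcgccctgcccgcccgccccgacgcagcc
Egln3: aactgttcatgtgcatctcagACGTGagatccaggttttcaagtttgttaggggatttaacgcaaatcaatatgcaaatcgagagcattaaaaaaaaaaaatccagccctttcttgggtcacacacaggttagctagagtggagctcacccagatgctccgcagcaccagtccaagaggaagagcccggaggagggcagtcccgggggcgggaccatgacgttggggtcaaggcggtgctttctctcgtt
Egln2: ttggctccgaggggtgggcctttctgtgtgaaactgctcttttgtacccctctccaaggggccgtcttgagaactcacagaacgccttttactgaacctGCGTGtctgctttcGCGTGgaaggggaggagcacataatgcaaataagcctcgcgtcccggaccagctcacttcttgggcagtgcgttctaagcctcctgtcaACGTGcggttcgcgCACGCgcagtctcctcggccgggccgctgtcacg
Vhl: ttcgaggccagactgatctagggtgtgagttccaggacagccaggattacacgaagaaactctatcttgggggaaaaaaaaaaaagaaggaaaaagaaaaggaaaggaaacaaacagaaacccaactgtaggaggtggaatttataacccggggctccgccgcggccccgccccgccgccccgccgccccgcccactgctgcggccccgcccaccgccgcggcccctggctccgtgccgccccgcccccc

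The *Egln1* window held 2 matches, GCGTG beginning 126 bases and ACGTG beginning 68 bases before the RefSeq start. By the GENCODE start, which lies upstream, that ACGTG falls just inside the gene. That of *Egln3* held 1, an ACGTG at 229 bases. The *Egln2* window held 4, of which 1 was ACGTG at 48 bases. Each of these 3 windows held 1 ACGTG, and any link between matches and hypoxia levels was not tested. A second RefSeq start of *Egln2*, at chr7:27165729-27165978, had 1 GCGTG. The *Vhl* and *Hif1an* windows had 0, *Arnt* had 1, *Cited2* and *Hif3a* had 2 each, and *Hif1a* had 3. The *Hif1a* window, at chr12:73907617-73907866, lies wholly inside the GENCODE span of the gene, downstream of the start given there. In *Hif1a* and *Cited2* a palindromic CACGTG was counted once on each strand. Of 32851 mouse promoter windows of this length, 38.6% held at least 1 match to either motif and 16.6% held ACGTG, and 9 of the 10 genes had a window. A match is a description of these letters and not a binding site.

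*Vhl* encodes the substrate-recognition subunit of the ligase and lies at chr6:113623959-113631633 on the plus strand. It read 24.9 TPM in the control, 21.2 in glucose depletion, 20.4 in glutamine depletion, 50.4 in hypoxia, 21.3 in ER stress, 19.9 in oxidative stress and 10.5 in osmotic stress. It had both its highest library in hypoxia and its lowest in osmotic stress, with the other 5 close together. The hypoxia change was 0.99 (1.99-fold), just short of the 2-fold mark, and the plain TPM ratio was 2.03. In osmotic stress *Vhl* fell by 1.17 on the log2(TPM + 1) scale. That fall was 0.95 with a pseudocount of 5 TPM and 0.87 against the nearest other library, so it lies near the threshold.

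VHL acts with elongins B and C (*Elob*, *Eloc*), cullin 2 (*Cul2*) and RBX1 (*Rbx1*), and their genes did not share the hypoxia level of *Vhl*. *Elob* was 583 TPM in the control and 589 in hypoxia, *Eloc* 223 and 199, *Cul2* 36.9 and 33.8, and *Rbx1* 61.4 and 50.0. They belong to a list of 18 genes of alpha subunit degradation and recycling, all above the filter, of which 0 rose and 0 fell in hypoxia, near the 3.57% and 2.64% of all genes. The median change of the list there was -0.08, beside -0.05 over the 12909 genes. Its most abundant genes were *Rack1*, an oxygen-independent route to HIF-1α turnover (1571 TPM in the control, 1534 in hypoxia), and *Hsp90ab1*, a chaperone (1282 and 1442).

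*Hif1an* encodes FIH and lies at chr19:44562850-44576274 on the plus strand. Its levels were 13.0 TPM in the control, 13.0 in glucose depletion, 14.0 in glutamine depletion, 13.52 in hypoxia, 14.3 in ER stress, 12.8 in oxidative stress and 6.32 in osmotic stress. Osmotic stress was low and the other 6 libraries were nearly level. Its change in osmotic stress was -0.94, within the 2-fold mark, while the plain TPM ratio of control to osmotic stress was 2.06. In hypoxia it was 0.05.

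FIH and the prolyl hydroxylases belong to the 2-oxoglutarate-dependent dioxygenases, and 12 of 13 listed relatives passed the filter. In hypoxia 3 of the 12 rose and 0 fell, where 3.57% of all genes counted rose and 2.64% fell. *P4ha1*, a catalytic subunit of collagen prolyl 4-hydroxylase, was 130 TPM in the control and 486 in hypoxia (log2 change 1.90). *P4ha2*, another such subunit, was 106 and 500 (2.22). *Jmjd6*, a lysyl hydroxylase of splicing factors, was 56.2 and 138 (1.29). The other relatives stayed within 2-fold, as did *Egln2* and *Hif1an*, and the median of the list was 0.12, beside -0.05 over the 12909 genes.

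*Hif1a* encodes HIF-1α and lies at chr12:73901375-73947530 on the plus strand. It was 100.2 TPM in the control, 90.1 in glucose depletion, 99.3 in glutamine depletion, 108 in hypoxia, 85.5 in ER stress, 105 in oxidative stress and 154 in osmotic stress. Only osmotic stress stood above the rest, at 0.62 on the log2(TPM + 1) scale (1.54 times the control in TPM). The hypoxia change was 0.10. In the annotation, exons of *Gm15283* (antisense) and *Gm49321* (same strand) overlap *Hif1a*. They stood at 0.445 and 2.72 TPM in the control and at 2.45 and 10.0 in hypoxia, and how reads were divided among the overlapping genes was not tested.

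*Epas1* encodes HIF-2α, the alpha subunit known for its part in endothelium and in erythropoietin control, and lies at chr17:86753700-86833410 on the plus strand. It stood at 2.69 TPM in the control, 1.72 in glucose depletion, 1.44 in glutamine depletion, 1.84 in hypoxia, 0.36 in ER stress, 2.87 in oxidative stress and 2.64 in osmotic stress. ER stress was the low library, and the hypoxia level lay below the control. The ER change was -1.44, a TPM ratio of 7.46 between control and ER stress, but on levels this low it was -0.52 with a pseudocount of 5 TPM. The summed endothelial markers were 6.63 TPM in the control and 5.68 in ER stress, and their members differed: *Kdr* was 3.64 and 3.84 TPM, *Tek* 1.92 and 0.275, *Pecam1* 0.223 and 0.0646, *Emcn* 0.734 and 1.22, and *Cdh5* 0.111 and 0.288. Their part in the *Epas1* value was not tested.

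*Hif3a*, for the alpha relative whose variants can restrain HIF, lies at chr7:17031507-17062427 on the minus strand. It was listed at 0 in the control, hypoxia, ER stress and oxidative stress, and at no more than 0.08 TPM elsewhere. *Hif1a* therefore made up 97.3% to 99.6% of the summed alpha transcripts in every library, hypoxia included (98.3%).

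*Arnt* encodes the beta subunit and lies at chr3:95434388-95497240 on the plus strand. Its levels were 35.1 TPM in the control, 33.9 in glucose depletion, 35.1 in glutamine depletion, 38.4 in hypoxia, 40.9 in ER stress, 33.1 in oxidative stress and 18.5 in osmotic stress. Osmotic stress was again alone at the low end, with a change of -0.89, and hypoxia was at 0.13. The alpha transcripts were 2.93 times *Arnt* in the control, 2.85 in hypoxia, 2.10 in ER stress and 8.51 in osmotic stress. Set against the summed hydroxylases, the alpha transcripts were 1.47 times as abundant in the control, 0.354 in hypoxia, and 1.29 to 2.52 in the others.

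*Cited2* lies at chr10:17723218-17725674 on the plus strand. It read 71.7 TPM in the control, 83.5 in glucose depletion, 94.2 in glutamine depletion, 66.0 in hypoxia, 123 in ER stress, 34.9 in oxidative stress and 50.5 in osmotic stress. ER stress was highest, oxidative stress lowest, and hypoxia near the control at -0.12. The fall in oxidative stress was -1.02 and the ER change 0.77. The mitochondrial share was highest in oxidative stress, 9.25% against 6.37% in the control, and with those transcripts removed the *Cited2* change was -0.98.

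The median of all 12909 genes was itself shifted in oxidative stress (-0.16) and in osmotic stress (-0.12). Relative to that shift, *Cited2* in oxidative stress was -0.86. In osmotic stress *Vhl* became -1.05, *Hif1an* -0.82, *Arnt* -0.77 and *Hif1a* 0.74, so each kept its direction.

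A list of coactivator genes and *Cited2* relatives had 7 of 9 genes above the filter (*Ep300*, *Crebbp*, *Ncoa1*, *Ncoa2*, *Ncoa3*, *Med23* and *Smarca4*), and 0 of the 7 changed past 2-fold in any condition. With 1.83% to 11.0% of all genes past that mark in each direction, a count of 0 of 7 is near the background. *Ep300*, the gene of p300, was 16.2 TPM in the control and 20.4 in hypoxia, and *Smarca4*, a chromatin remodeller, was 72.6 and 72.2. HIF target genes outside the members, 14 in all and listed with their response to low oxygen known, gave a reference for the size of the hydroxylase changes. All 14 rose in hypoxia, by 1.02 to 4.85 with a median of 2.29, where 3.57% of all genes counted rose. In the other 5 conditions their medians lay between -0.18 and 0.19, but single targets changed both ways. In oxidative stress 3 rose (*Slc2a1*, *Vegfa* and *Ndrg1*), beside 3.94% of all genes counted. In ER stress 2 rose and 3 fell, beside 8.60% and 11.0%. In glutamine depletion 1 rose and 1 fell, beside 3.21% and 3.21%. In osmotic stress 1 fell, near the 8.76% of all genes. *Vegfa*, the angiogenic growth factor, was 78.6 TPM in the control and 275 in hypoxia, below its 402 in glutamine depletion and 322 in oxidative stress. *Ldha*, lactate dehydrogenase A, went from 692 to 2381 TPM, and *Pgk1*, a glycolytic kinase, from 291 to 1244. The *Egln3* change (4.80) thus lay near the top of that range and the *Egln1* change (2.75) above its median.

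**Figure D4:**
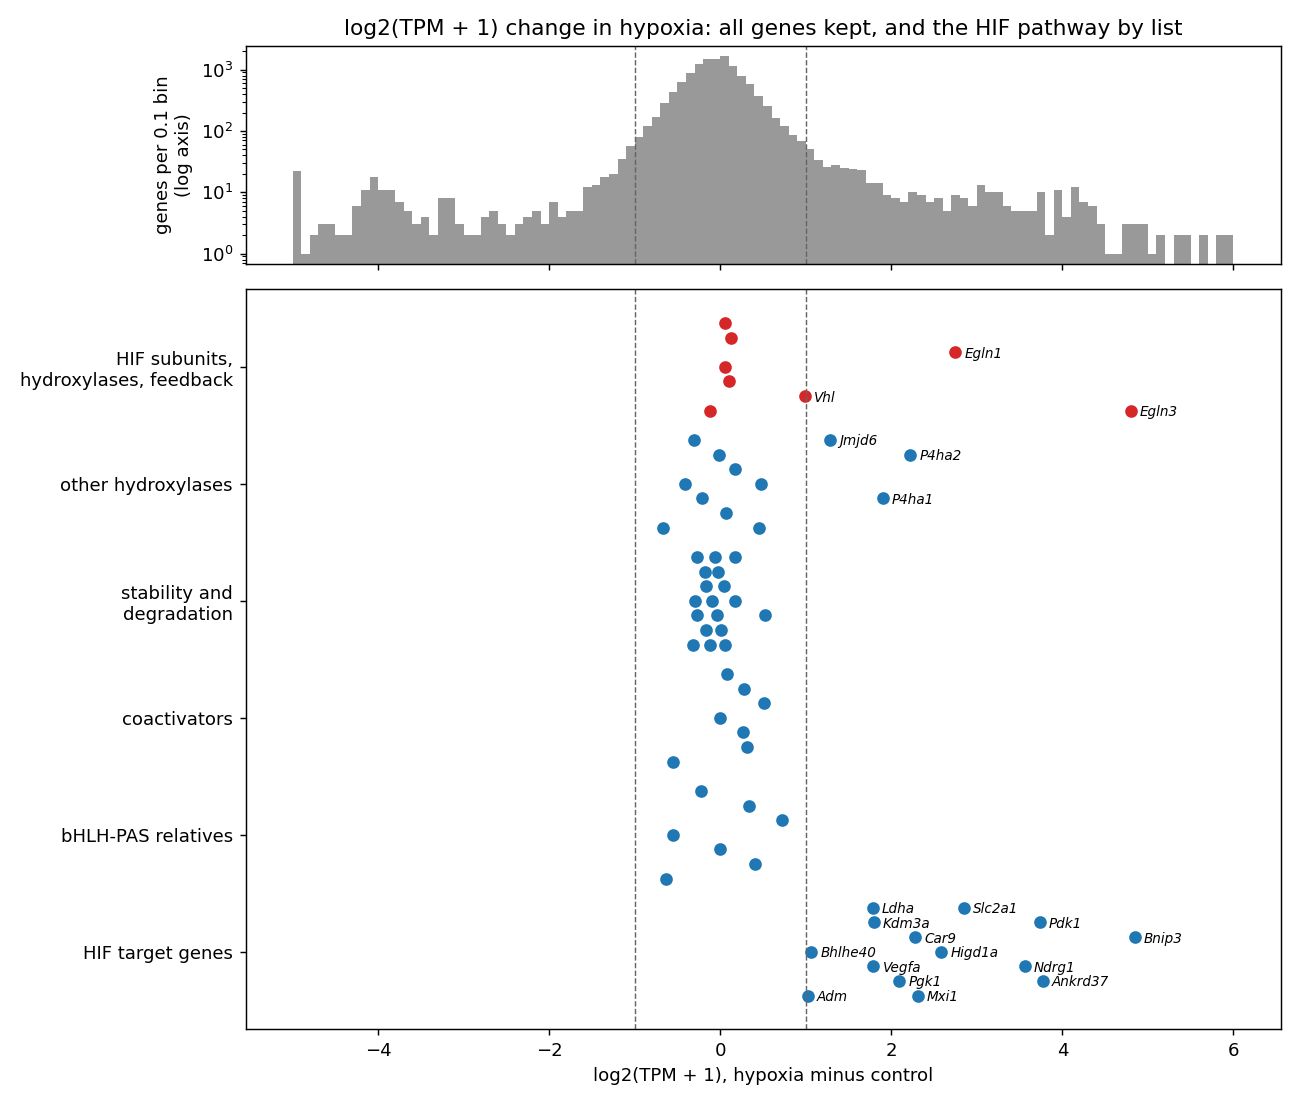
Change in hypoxia as log2(TPM + 1) minus control, for all 12909 genes (upper histogram, log axis of genes per bin of 0.1, changes beyond -5 and 6 placed in the end bins) and for the HIF pathway by list (lower points, 1 per gene above the filter, vertical spread for legibility only). *Egln1* and *Egln3* lie among the 14 HIF target genes (1.02 to 4.85), *Vhl* sits at the 2-fold line (0.99), and the coactivator and degradation genes lie between the lines.

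Among 8267 protein-coding genes averaging 10 TPM or more, those most like *Egln1* over the 7 libraries by Pearson's r of log2(TPM + 1) were *Higd1a* (0.996), *Pgm2* (0.990) and *Grhpr* (0.989). Those most like *Egln3* were *Higd1a* (0.994), *Pfkfb3* (0.991) and *Bnip3l* (0.989). Without the hypoxia library these values were 0.879, 0.729 and 0.907 for *Egln1* and 0.732, 0.710 and 0.345 for *Egln3*. For *Vhl* the nearest genes were *Irgq* (0.985), *Faap20* (0.976) and *Rtkn* (0.967), for *Cited2* *Lrrc40* (0.991), *Gpbp1* (0.985) and *Cbwd1* (0.983), and for *Epas1* *Cacng7* (0.993), *Car13* (0.985) and *Homer3* (0.983). Each r was picked as the highest of many over 7 points and is given without a p.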

How the data were processed

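Poly(A) RNA libraries (stranded, paired-end) were made by the authors as 1 library per condition. The deposited TPM values came from kallisto 0.43.1 on the GRCm38 transcriptome and were summed per gene by the authors; read counts and depth are not analysed here, so no interval was computed. With default settings kallisto does not use strand.

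Changes were computed as log2(TPM + 1) minus the control; genes averaging 2 TPM or more were counted, and a change over 2-fold was called. With 1 library per group no test was run. Tables were handled with pandas 2.3.3 and numpy 2.4.6 in Python 3.11.15, plots were drawn with matplotlib 3.10.9, and the scripts were tested on simulated data. The genes and lists were chosen with earlier results of these data known. Named genes were all members, list genes past 2-fold in hypoxia, the 2 most abundant of each list and the 3 most alike genes. The bHLH-PAS list was an exception, since no value is given for *Clock*, 1 of its 2 most abundant genes. *Elob*, *Eloc*, *Cul2*, *Rbx1*, *Siah2*, *Usp20*, *Riox1*, *Ahr*, *Ahrr*, *Arntl*, *Npas3*, *Ogfod2*, the coactivator list and the endothelial markers were named after their values were seen. The same holds for *Cd68* and *Krt18*. Most HIF targets are given only as a range. Alternatives were other pseudocounts, filters, thresholds, centring and references; the nearest library as reference and the plain TPM ratio were added after the data were seen. Positions are from GENCODE M21 (GRCm38) and promoters from RefSeq.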

Additional observations from a re-analysis of the deposited data

How the results depend on the processing

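With 1 library per condition and unknown depth, values near 2-fold cannot be placed on either side of it. The rise of *Egln1* and *Egln3* in hypoxia held under every alternative run, and *Vhl* joined them, giving 3, with a pseudocount of 0.1 TPM, centring, a 1.5-fold threshold, or the glucose depletion library or the median of the other 6 libraries as reference; its plain TPM ratio is also past 2-fold. No change turned direction past the threshold. In osmotic stress the 1 member that fell became 2 with a pseudocount of 0.1 TPM (*Hif1an* and *Vhl*), 3 at 1.5-fold (*Arnt* too), and 0 with a pseudocount of 5 TPM, at 3-fold, or against the median of the other 6, the glucose depletion or the nearest library, the last added after the data were seen. In oxidative stress the 1 became 2 at 1.5-fold (*Egln3* and *Cited2*) and 0 with a pseudocount of 5 TPM, centring, mitochondrial genes removed, 3-fold or the nearest library. In ER stress the 0 members above the filter that fell became 1 (*Epas1*) with mitochondrial genes removed or no filter, and the 0 that rose became 1 (*Cited2*) at 1.5-fold. At 1.5-fold 1 member rose in osmotic stress (*Hif1a*). In hypoxia 1 relative of ARNT fell (*Ahrr*) and 1 rose (*Arntl*) at 1.5-fold, 1 rose (*Npas3*) with no filter, and 1 hydroxylase relative fell (*Ogfod2*) at 1.5-fold. Of 404 recomputed changes of single members, 368 stayed on the same side of 0 and of the 2-fold mark, and 36 did not. A shift in size alone was not counted as a move. The causes of these moves were not tested beyond the settings themselves.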

Other observations

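ARNT is itself a bHLH-PAS protein, and 7 of 12 listed genes of its bHLH-PAS relatives and partners passed the filter. In hypoxia 0 of the 7 rose and 0 fell, near the 3.57% and 2.64% of all genes. Outside hypoxia, *Ahr*, the aryl hydrocarbon receptor, fell in oxidative stress by 1.23 and in osmotic stress by 1.58 on the log2(TPM + 1) scale, the latter in the library where *Arnt* was lowest. *Ahrr*, its repressor, was lower under thapsigargin (fell by 1.32), in glutamine depletion (fell by 2.33) and in osmotic stress (fell by 1.56). *Arntl*, the clock partner of CLOCK, rose by 1.16 in ER stress and by 1.05 in glutamine depletion. The control was the lowest of the 7 libraries for *Arntl* (16.5 TPM) and the highest for *Ahrr* (26.2 TPM). Whether that 1 library was unusual for these genes was not tested. Of the 7 genes, 1 rose and 1 fell in ER stress (8.60% and 11.0% of all genes) and in glutamine depletion (3.21% and 3.21%). In oxidative stress 1 fell (4.85%), and in osmotic stress 2 fell (8.76%). With a pseudocount of 5 TPM the *Ahr* change in oxidative stress and the *Arntl* change in glutamine depletion were no longer past 2-fold.

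Among the genes of alpha subunit stability, the ubiquitin ligase gene *Siah2*, known for targeting prolyl hydroxylases, was 10.8 TPM in the control, 15.9 in hypoxia and 48.6 in ER stress, where its change was 2.07. *Usp20*, a deubiquitinase, changed by 1.06 there. Of the 18 listed genes 2 rose in ER stress and 0 fell, where 8.60% of all genes counted rose and 11.0% fell. *Riox1*, a histone and ribosomal protein hydroxylase, changed by 1.01 in ER stress and by -1.48 in osmotic stress. Of the 12 hydroxylase relatives above the filter, 1 rose in ER stress and 1 fell in osmotic stress. Both counts are near the shares of all genes, 8.60% and 8.76%. The *Usp20* change and both *Riox1* changes were not counted past 2-fold with a pseudocount of 5 TPM or a filter at a mean of 10 TPM. These values have no replicate check.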
